A study of Mus musculus with 6 samples.

Results

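The genes described here are 10 transcripts that mark the small sensory neurons of pain, itch and temperature: the channels Trpv1, Trpa1, Trpm8 and P2rx3, the receptor Mrgprd, and the neuropeptide genes Calca, Calcb, Tac1, Adcyap1 and Nppb. They were taken by symbol from a table of 24421 genes, in which all 10 have a row, and 9 of them had enough reads to be tested among 15604 genes. Read counts came from 6 mouse neurofibromas, benign tumours of the nerve sheath, on a C57BL/6J background. Knockout of the microRNA miR-155 defined the group miR-155KONf1KO, with tumours MiRNC149, MiRNC640 and MiRNC670. It was absent from Nf1KO, with tumours Nf803, Nf809 and Nf827, so n = 3 per group. All 6 were labelled Nf1fl/fl; DhhCre, so both groups share a Cre under Dhh, active in developing Schwann cells, that deletes floxed Nf1, the gene of a Ras inhibitor. Neurons were therefore not the intended target of the Nf1 deletion, and the labels do not say which cells lacked miR-155. Age, sex and the part of the nerve or ganglion that each piece of tumour held are not stated in the labels. The study set the groups side by side to look for possible miR-155 targets.

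Nociceptors are sensory neurons whose cell bodies lie in the dorsal root and cranial ganglia and whose thin axons run in nerves to skin and viscera. Their endings carry ion channels that open with heat, cold, irritants or ATP, and many of them store peptides in dense-core vesicles that are released both in the spinal cord and in the tissue. In the mouse, Calca, Tac1 and Trpv1 mark mainly peptidergic fibres, Mrgprd marks a non-peptidergic class of skin fibres that also have P2rx3, Trpm8 marks cold-sensing neurons, and Nppb marks a class of itch neurons.

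The groups' labels were checked on the miR-155 host transcript. Mir155hg had 5, 3 and 1 reads in miR-155KONf1KO, against 57, 66 and 71 reads in Nf1KO (tumours in the order above). Column totals ran from 13061129 to 16333181 reads. Markers of the Schwann cell, the cell of origin of a neurofibroma, were present in every tumour, and the 12 markers summed to 5978 to 7455 CPM in miR-155KONf1KO and to 5557 to 5969 CPM in Nf1KO. CPM are reads scaled to a library of 1000000. Whether each tumour came from its own animal is not stated, and the p-values cover only the spread among these samples, which may be technical. In bulk tissue, fewer neurons or neurites and less RNA in each cannot be told apart.

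All 9 tested transcripts had higher means in the tumours without miR-155, and 3 of them passed the test. Of the 9 tested genes, Trpm8, Mrgprd and Trpv1 rose by the edgeR quasi-likelihood test at a Benjamini-Hochberg adjusted p under 0.05, and none fell (5.22% of all tested genes were called higher and 4.74% lower). The other 6 tested genes had log2 fold changes of 1.28 to 2.30 and did not pass. The median log2 fold change of the 9 was 1.5, against 0.01 over all tested genes. For 6 of the 9, every miR-155KONf1KO tumour lay above every Nf1KO tumour, as it did for 16.3% of all tested genes. The summed level of the 10 transcripts was 269 to 548 CPM in miR-155KONf1KO and 78.0 to 236 CPM in Nf1KO.

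The calls depended on single tumours. With edgeR, 0 of the 9 genes were called without tumour MiRNC670, Nf803 or Nf827 (no gene of the table was, while 3240, 3335 and 3265 genes had an unadjusted p under 0.05), Mrgprd alone was called without MiRNC640 (0.618% of all tested genes were called higher), and 8 were called without Nf809 (7.38% of all tested genes were then called higher). In the 3 fits with no call, the log2 fold changes were 2.32 to 2.56 for Trpm8, 2.26 to 2.41 for Mrgprd and 1.02 to 1.05 for Trpv1, each still positive. DESeq2 called 7 of the 9 with all tumours (8.25% of all genes were called higher). It called Trpv1, Trpm8 and Mrgprd in each of its 6 fits that left out 1 tumour (5.04% to 9.71%).

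**Figure D1:**
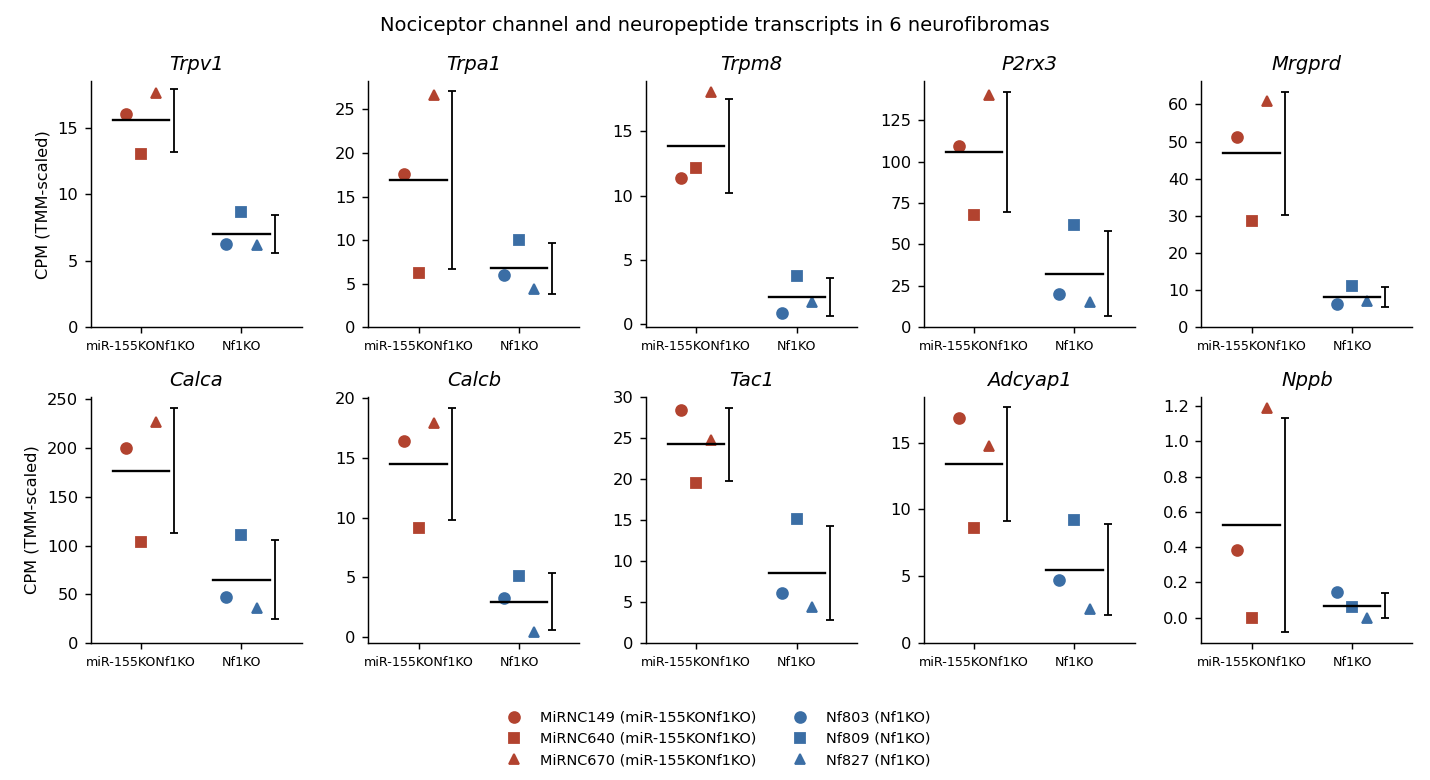
CPM of the 10 transcripts in each tumour, with 1 panel per gene and axes that differ between panels. Points are tumours, horizontal bars are group means and the capped bars are 1 SD over 3 tumours. Trpv1, Trpm8, P2rx3, Mrgprd, Calcb and Tac1 separate the groups, while for Trpa1, Calca and Adcyap1 tumour Nf809 lies above tumour MiRNC640.

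The microRNA removed in the first group is shown with its seed, bases 2 to 8, in capitals (RefSeq, GRCm38.p6, chr16:84714143-84714165, plus strand), followed by the only 2 matches to that seed found when the longest 3′ UTR of each of the 10 genes was searched, with the matching bases in capitals (GENCODE M21 on GRCm38, plus strand for both).
mmu-miR-155-5p: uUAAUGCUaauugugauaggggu
Mrgprd, chr7:145323338-145323364: gatgtagttcAGCATTActtacagaaa
Adcyap1, chr17:93206438-93206464: atattaaccaAGCATTAttacacacat
Each of the 2 is the 7-base AGCATTA, which pairs with bases 2 to 8 and lacks the A that would make it the 8-base AGCATTAA. They start 989 bases into the 1727 bases of the Mrgprd 3′ UTR and 2321 bases into the 2410 bases of that of Adcyap1. The other 8 genes, with 3′ UTRs of 227 to 858 bases, held neither of these nor the 7-base GCATTAA. Of 19525 genes with a 3′ UTR, 12.8% held at least 1 such match and 3.13% the 8-base one, and the median 3′ UTR was 996 bases long. A match is a stretch of letters and shows no binding. Of the 2 genes with a match, Mrgprd was called higher without miR-155 (log2 fold change 2.52) and Adcyap1 was not called (1.28). Trpm8 and Trpv1, which hold no match, were called higher (2.70 and 1.14). The part of the matches in these levels was not tested.

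Among the channels, Trpm8 had the largest fitted change with all 6 tumours. Trpm8 encodes the menthol and cold receptor (ENSMUSG00000036251.16, chr1:88277661-88389293, plus strand). It stood at 11.4, 12.2 and 18.1 CPM in MiRNC149, MiRNC640 and MiRNC670, against 0.871, 3.77 and 1.67 CPM in Nf803, Nf809 and Nf827. The lowest tumour without miR-155 was well above the highest of Nf1KO, and Nf809 was the highest of its group. By edgeR it rose by 2.70 log2 units (SE 0.52, adjusted p = 0.0269), a change above that of 99.6% of tested genes. Without Nf803 its log2 fold change was 2.32, beside 2.33 for Mrgprd and 2.36 for Calcb, so the order of these 3 genes changed without that tumour. Pooled reads were 585 in miR-155KONf1KO and 98 in Nf1KO, which scales to a ratio of 6.24 (5.03 to 7.81, the 95% exact binomial interval, for counting error only). An antisense gene shares 388 exonic bases with Trpm8, or 8.2% of its exon length, and reads of the pair cannot be told apart there, since no source used here states whether the counting used strand.

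Trpv1, the receptor for heat and capsaicin (ENSMUSG00000005952.15, chr11:73234292-73261242, plus strand), rose by less and varied least. Its level was 16.03, 13.04 and 17.7 CPM in MiRNC149, MiRNC640 and MiRNC670, against 6.24, 8.72 and 6.16 CPM in Nf803, Nf809 and Nf827. The groups did not overlap. The log2 fold change of 1.14 (SE 0.24) had an adjusted p of 0.0315, and of 0.0532 with sex as a term in the fit, which called 3.42% of all tested genes higher.

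Trpa1 encodes a receptor for irritant chemicals (ENSMUSG00000032769.5, chr1:14872648-14918862, minus strand). It was at 17.6, 6.28 and 26.7 CPM in MiRNC149, MiRNC640 and MiRNC670, against 5.95, 10.02 and 4.35 CPM in Nf803, Nf809 and Nf827. Tumour MiRNC640 lay among the Nf1KO tumours, so the groups overlapped. The log2 fold change of 1.31 (SE 0.54) did not pass (adjusted p = 0.173), and the lowest adjusted p of any alternative with edgeR that left out 1 tumour was 0.076.

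P2rx3 encodes the ATP-gated channel subunit of nociceptor endings (ENSMUSG00000027071.14, chr2:84998583-85037462, minus strand). It had 109, 67.7 and 139.9 CPM in MiRNC149, MiRNC640 and MiRNC670, against 19.8, 61.9 and 15.4 CPM in Nf803, Nf809 and Nf827. All tumours without miR-155 were higher, with little distance between MiRNC640 and Nf809. Its log2 fold change was 1.70 (SE 0.54, adjusted p = 0.0946), and over the edgeR fits that left out 1 tumour the adjusted p was 0.0057 without Nf809 and 0.122 to 0.256 in the other 5. Ssrp1, a gene on the other strand that shares 51 exonic bases with P2rx3, had a log2 fold change of -0.20 (SE 0.16).

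Mrgprd had the smallest p of the set. It encodes a receptor for beta-alanine on fine skin fibres of itch and mechanical pain (ENSMUSG00000051207.7, chr7:145314835-145324086, plus strand). Its level was 51.2, 28.6 and 60.8 CPM in MiRNC149, MiRNC640 and MiRNC670, against 6.31, 11.3 and 6.96 CPM in Nf803, Nf809 and Nf827. Every tumour without miR-155 had more than the highest Nf1KO tumour, by a wide margin. Its log2 fold change was 2.52 (SE 0.35, adjusted p = 0.0201), above that of 99.4% of tested genes, and it stayed between 2.26 and 2.82 over 23 alternatives. Mrgprd belongs to a family of similar receptors, and no source used here states how reads that match several places were counted.

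**Figure D2:**
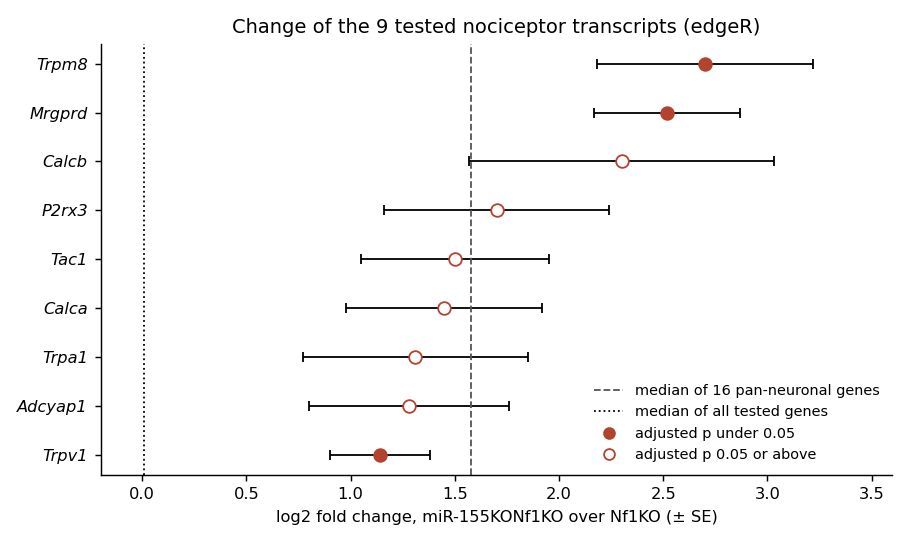
Log2 fold change of the 9 tested transcripts, miR-155KONf1KO over Nf1KO, with bars of 1 SE. Filled points passed an adjusted p of 0.05 by edgeR. The dashed line marks the median of 16 pan-neuronal genes (1.58) and the dotted line that of all tested genes (0.01). Trpm8 and Mrgprd lie more than 1 SE to the right of the dashed line and Trpv1 more than 1 SE to its left.

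The neuropeptide genes had higher means without miR-155, and none was called by edgeR. Calca, which encodes calcitonin and, by alternative splicing in neurons, the vasodilator peptide CGRP (ENSMUSG00000030669.13, chr7:114631478-114636357, minus strand), was the most abundant transcript of the set. It stood at 200.5, 104 and 226 CPM in MiRNC149, MiRNC640 and MiRNC670, against 47.4, 111 and 36.1 CPM in Nf803, Nf809 and Nf827. Nf809 exceeded MiRNC640, and apart from that pair the groups were separate. The log2 fold change of 1.45 (SE 0.47) had an adjusted p of 0.0963 with edgeR and of 0.00735 with DESeq2. The table counts reads per gene, so calcitonin and CGRP transcripts are not separated.

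Calcb, the neighbouring gene for the beta form of CGRP (ENSMUSG00000030666.11, chr7:114718643-114723365, plus strand), had 255, 135 and 226 reads in MiRNC149, MiRNC640 and MiRNC670, against 45, 83 and 6 reads in Nf803, Nf809 and Nf827. The 6 reads of Nf827 were far below the other Nf1KO tumours, and the groups did not overlap. Calcb had a log2 fold change of 2.30 (SE 0.73, adjusted p = 0.0939). Calca and Calcb are close copies, so their counts are uncertain where reads match both.

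Tac1 encodes substance P and neurokinin A (ENSMUSG00000061762.12, chr6:7554879-7565834, plus strand). Its level was 28.5, 19.6 and 24.8 CPM in MiRNC149, MiRNC640 and MiRNC670, against 6.10, 15.1 and 4.42 CPM in Nf803, Nf809 and Nf827. The groups did not overlap, and Nf809 lay nearest to the tumours without miR-155. The log2 fold change of 1.5 (SE 0.45) missed the threshold (adjusted p = 0.0792), while limma voom gave an adjusted p of 0.0474 (5.19% of all tested genes were called higher).

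Adcyap1 encodes PACAP, a peptide of sensory and autonomic neurons (ENSMUSG00000024256.7, chr17:93199017-93206537, plus strand). It was at 16.8, 8.65 and 14.7 CPM in MiRNC149, MiRNC640 and MiRNC670, against 4.72, 9.21 and 2.54 CPM in Nf803, Nf809 and Nf827. Nf809 lay above MiRNC640, so the groups overlapped. The log2 fold change of 1.28 (SE 0.48) did not pass (adjusted p = 0.142).

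Nppb encodes a natriuretic peptide that serves as a transmitter of itch neurons in the mouse and is also made by heart muscle (ENSMUSG00000029019.8, chr4:147985788-147987205, plus strand). It was near the limit of detection, with 6, 0 and 15 reads in MiRNC149, MiRNC640 and MiRNC670, against 2, 1 and 0 reads in Nf803, Nf809 and Nf827, and it was not tested. The level that a count of 0 leaves possible was at most 0.238 CPM, its value at the lowest depth, that of MiRNC670. MiRNC640 and Nf827, which had 0 reads, were deeper, so their limits were lower. The pooled ratio was 7.31 (21 against 3 reads; 95% exact binomial interval 2.18 to 38.3, for counting error only), and 15 of the 21 reads came from MiRNC670. That tumour held 2167 CPM of skeletal and cardiac muscle markers, against 195 and 407 CPM in the other tumours of its group. Tumour Nf809 of Nf1KO held 2312 CPM of these markers and 1 Nppb read. The part of heart or other muscle in the Nppb reads was not tested.

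Promoter sequence is shown for the searched peptide genes that held the half-site of the cyclic AMP response element (CRE), TGACG on either strand. The windows are 30 bases of RefSeq promoters (250 bases before to 50 after a start site, GRCm38.p6), on the strand of the gene, with the half-site in capitals.
Calca, chr7:114636405-114636434, minus strand: gaagcacagaggTGACGcaatctgtctggg
Tac1, chr6:7554852-7554881, plus strand: tccctaaaattgCGTCAtttcgaacacaat
Tac1, chr6:7555006-7555035, plus strand: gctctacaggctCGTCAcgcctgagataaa
Adcyap1, chr17:93198914-93198943, plus strand: ggactaggatgcTGACGtcttttactgata
The half-sites of Tac1 begin 197 and 43 bases before the start, that of Calca 65 bases and that of Adcyap1 91 bases before 1 of its 2 annotated starts. Promoters were matched for 7 of the 10 genes, and Trpa1, P2rx3 and Calcb, which had none, were not searched. Of the 7 genes, 3 held the half-site. Counted as promoters, 4 of 8 held it, beside 20.8% of all 32851 promoters, and both Adcyap1 promoters hold the same half-site. The homeodomain core TAATTA, sought on both strands because sensory neurons have homeodomain factors such as Isl1 and Pou4f1, was found for Trpm8 and Tac1, and in 5.29% of all promoters. No half-site overlapped a homeodomain core. The RefSeq starts of Trpm8 and Tac1 lie inside the spans given above for these genes, which have upstream starts in GENCODE. The windows of Trpm8 and Tac1 therefore lie wholly or partly within those spans. These letters describe the windows and show no factor bound there.
Trpm8, chr1:88306528-88306557, plus strand: actggaatttaaTAATTAcaatcttagcat
Tac1, chr6:7554949-7554978, plus strand: cgagggggcggcTAATTAaatattgagcag

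Levels per length put the members in much the same order in both groups. In RPKM, which divide CPM by the exon length in kilobases, Calca led, at 105 ± 38.3 in miR-155KONf1KO and 38.5 ± 24.0 in Nf1KO (SD, n = 3). P2rx3 was second, at 37.9 ± 13.01 RPKM in miR-155KONf1KO and 11.6 ± 9.20 RPKM in Nf1KO. In the tumours without miR-155, Mrgprd (14.9 ± 5.26 RPKM) and Calcb (11.5 ± 3.72) followed and differed by less than their spread. Then came Tac1 (7.14 ± 1.31 RPKM), Trpv1 (4.23 ± 0.637), Trpa1 (3.96 ± 2.40), Adcyap1 (3.55 ± 1.12), Trpm8 (2.93 ± 0.771) and Nppb (0.672 ± 0.776). Neighbours among Trpv1, Trpa1, Adcyap1 and Trpm8 did not differ beyond their spread.

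In Nf1KO, Mrgprd (2.60 ± 0.853 RPKM), Tac1 (2.52 ± 1.70), Calcb (2.32 ± 1.88), Trpv1 (1.91 ± 0.395), Trpa1 (1.59 ± 0.685) and Adcyap1 (1.45 ± 0.900) formed a run of levels with no neighbours apart by more than their spread. Trpm8 (0.445 ± 0.316 RPKM) and Nppb (0.0883 ± 0.0933) were lowest.

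The tumours of a group kept an order across the set. Within Nf1KO, Nf809 was highest for 9 of the 9 tested genes and Nf827 lowest for 7. Within miR-155KONf1KO, MiRNC640 was lowest for 8 and MiRNC670 highest for 7. The mean over general neuronal transcripts was highest in MiRNC670 and lowest in MiRNC640 within miR-155KONf1KO, and highest in Nf809 within Nf1KO, where Nf803 and Nf827 were level. This mean log2 CPM of 16 pan-neuronal genes, such as the neurofilament genes and Snap25, was 6.78, 6.42 and 7.14 in MiRNC149, MiRNC640 and MiRNC670, against 4.82, 5.80 and 4.81 in Nf803, Nf809 and Nf827, a difference of 1.64 between group means. Of these 16 genes 10 rose and none fell (5.22% of all tested genes were called higher), with a median log2 fold change of 1.58. Snap25, which encodes a protein that acts in synaptic vesicle fusion, was at 2138 ± 461 CPM in miR-155KONf1KO and 479 ± 171 CPM in Nf1KO (SD, n = 3).

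Markers of adjoining tissue also differed between tumours. The 10 skeletal and cardiac muscle markers summed to 195, 407 and 2167 CPM in MiRNC149, MiRNC640 and MiRNC670, against 80.5, 2312 and 40.1 CPM in Nf803, Nf809 and Nf827. MiRNC670 and Nf809, the tumours highest in most nociceptor transcripts of their groups, had the highest sums of muscle markers. Without both of them, Trpm8, Mrgprd, P2rx3, Calca and Tac1 were called (5 of the 9, with 3.61% of all tested genes called higher), and Trpv1 was not (adjusted p = 0.0614). The 7 adipocyte markers summed to 91.6, 2366 and 770.6 CPM in miR-155KONf1KO, against 418.5, 35.3 and 366 CPM in Nf1KO, with MiRNC640 the highest. By Xist and Y-linked reads, MiRNC149 was female and MiRNC640 and MiRNC670 male, while Nf803 and Nf827 were female and Nf809 male, so the sexes were unbalanced between groups. The fit without MiRNC670 and Nf809 kept MiRNC640, the highest in adipocyte markers, so it does not bear on fat. MiRNC670 and Nf809 also had the highest pan-neuronal means of their groups, so that fit cannot separate muscle from neuronal content. The part of muscle and fat in the levels of the nociceptor genes was not tested, and that of sex not beyond the fit with sex as a term.

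Set against the pan-neuronal level of the same tumour, the members were sorted by whether the groups overlapped. The share of all tested genes that separate on this scale was not computed. Trpm8 and Mrgprd lay higher in the tumours without miR-155 on this scale too. Relative to the pan-neuronal mean, Trpm8 stood at -3.25, -2.80 and -2.95 log2 units in MiRNC149, MiRNC640 and MiRNC670, against -4.81, -3.84 and -3.96 in Nf803, Nf809 and Nf827. The groups did not overlap, and the difference of 1.2 had p = 0.1 in the two-sided exact permutation test, the smallest that 3 against 3 tumours allow. Mrgprd stood at -1.10, -1.58 and -1.21 log2 units in the tumours without miR-155, against -2.13, -2.29 and -1.98 in Nf1KO, a difference of 0.84 (exact permutation p = 0.1, the smallest possible).

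Trpv1 had the opposite sign on this relative scale. It stood at -2.77, -2.70 and -2.98 log2 units in MiRNC149, MiRNC640 and MiRNC670, against -2.14, -2.66 and -2.16 in Nf803, Nf809 and Nf827. The groups did not overlap, though MiRNC640 and Nf809 almost met, and the difference was -0.50 (exact permutation p = 0.1, the smallest possible). The other 6 genes overlapped between groups on this scale. For Calca, Tac1, Adcyap1 and P2rx3 the differences were -0.09, 0.04, -0.24 and 0.28, with exact permutation p from 0.5 to 0.9. Trpa1 differed by -0.48 (exact permutation p = 0.5) and Calcb by 1.08 (exact permutation p = 0.2). Only 9 genes were compared, and with a smallest p of 0.1 none can pass a threshold of 0.05 before or after adjustment.

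**Figure D3:**
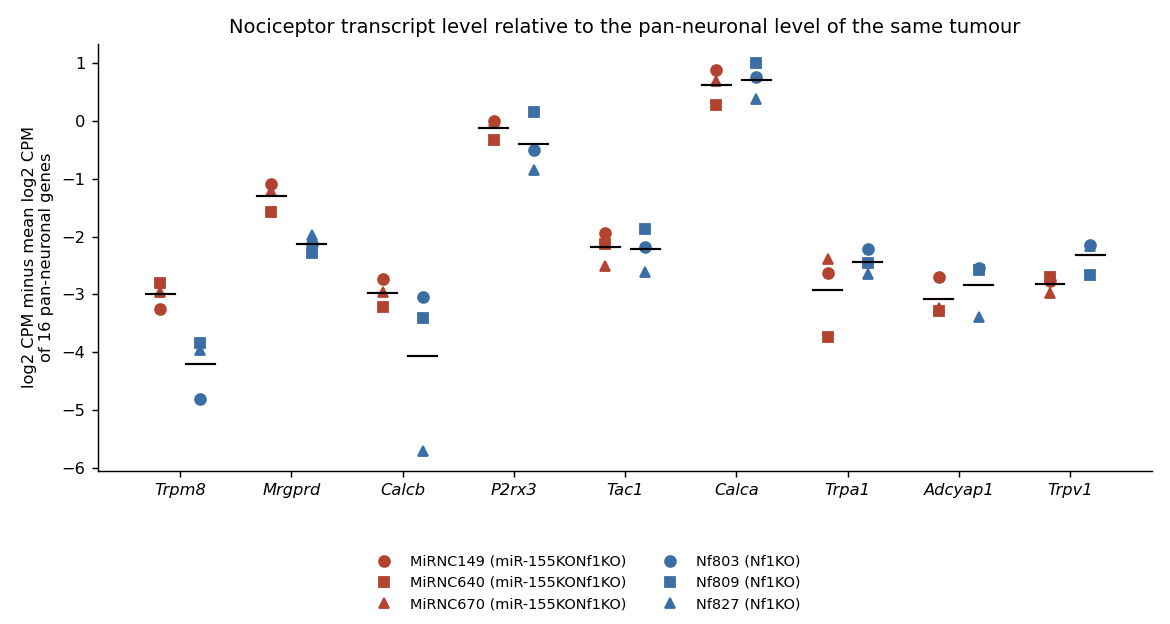
Log2 CPM of each tested transcript minus the mean log2 CPM of 16 pan-neuronal genes in the same tumour. Points are tumours and bars are group means, with miR-155KONf1KO on the left of each pair. Trpm8 and Mrgprd are higher in all 3 tumours without miR-155, Trpv1 is lower, and the others overlap.

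The machinery that makes, sorts and releases peptides was examined beside the peptides. Of 15 tested genes of peptide processing and dense-core vesicles, 8 rose and none fell, with a median log2 fold change of 1.41. Of all tested genes, 5.22% were called higher and 4.74% lower, shares that also stand beside the list counts below. Chgb, a granin of the vesicle core, was at 60.9, 53.8 and 59.1 CPM in MiRNC149, MiRNC640 and MiRNC670, against 12.4, 21.1 and 20.3 CPM in Nf803, Nf809 and Nf827 (log2 fold change 1.69, SE 0.23). Pcsk1n, an inhibitor of the prohormone convertase, rose by 2.01 (SE 0.39), Ptprn2, a vesicle membrane protein, by 1.5 (SE 0.27) and Cadps2, a priming factor for vesicle release, by 1.41 (SE 0.25). Of the 15, 14 had positive log2 fold changes, and Pam, an enzyme of peptide maturation named after its value was seen, was the exception at -0.32.

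Other sensory neuropeptides gave a mixed picture. Of 16 genes 7 had enough reads, and Sst alone rose (4.89 ± 2.03 CPM in miR-155KONf1KO and 1.01 ± 0.312 CPM in Nf1KO, log2 fold change 2.26, SE 0.50). Sst encodes somatostatin and marks the same class of mouse itch neurons as Nppb. Nmb, which encodes neuromedin B, showed a log2 fold change of 1.81 (SE 0.72), Gal, which encodes galanin, of 0.62 (SE 0.94), and Adm, adrenomedullin, of -1.62 (SE 0.41), and these 3 did not pass. Tac2 had no read in any tumour.

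Receptors for the members' peptides were examined beside their ligands, none of which was called by edgeR. Of 10 tested receptor genes, none rose and 2 fell, around a median log2 fold change of -0.07, with 5 values positive and 5 negative. Those 2 encode the CGRP receptor. Calcrl, its binding subunit, was at 50.7, 56.2 and 73.6 CPM in MiRNC149, MiRNC640 and MiRNC670, against 166, 106 and 98.8 CPM in Nf803, Nf809 and Nf827 (log2 fold change -1.04, SE 0.24, adjusted p = 0.0400). Ramp1, the accessory subunit that makes it a CGRP receptor, fell by 1.43 (SE 0.35, adjusted p = 0.0451), with 3.05 ± 0.499 CPM in miR-155KONf1KO and 8.24 ± 2.99 CPM in Nf1KO. The groups did not overlap for either gene. At most 1 of the 10 receptors was called in any edgeR fit that left out 1 tumour. Adcyap1r1, the PACAP receptor, gave a log2 fold change of 0.36 (SE 0.18), and Vipr2, a receptor shared by PACAP and VIP, of -1.97 (SE 0.68). Both were uncalled, as was Tacr1, the substance P receptor (0.42, named after its value was seen).

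Macrophage and fibroblast markers moved the other way in the same tumours. The 9 macrophage markers summed to 431 to 903 CPM in miR-155KONf1KO and to 1302 to 2361 CPM in Nf1KO, with 5 called lower. The 8 fibroblast markers summed to 4936 to 7232 CPM in miR-155KONf1KO and to 12600 to 14709 CPM in Nf1KO, with 4 called lower. The 7 endothelial markers, whose cells are a known site of Calcrl, summed to 158 to 302 CPM in miR-155KONf1KO and to 191 to 255 CPM in Nf1KO, with none called (edgeR). The part of these cells in the fall of Calcrl and Ramp1 was not tested.

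Further channels of sensory endings moved less evenly. Of 26 tested genes, 4 rose and none fell (5.22% of all tested genes were called higher), with a median log2 fold change of 0.79. The acid-sensing channel genes Asic1 and Asic2 rose by 1.27 (SE 0.20) and 1.55 (SE 0.35), Trpc1 by 0.87 (SE 0.19) and the ATP receptor subunit P2rx6 by 1.53 (SE 0.37). Asic1 was tight within groups, at 14.2 ± 0.428 CPM in miR-155KONf1KO and 5.90 ± 0.511 CPM in Nf1KO. The nociceptor sodium channel genes Scn9a, Scn10a and Scn11a, named after their values were seen, had log2 fold changes of 1.69, 1.86 and 2.07 and did not pass. Of the 26, 18 had positive and 8 negative log2 fold changes.

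Among 16 tested genes of the itch receptor list, which also holds the cytokine gene Tslp, 2 rose and none fell (5.22% of all tested genes were called higher). Htr1f, a serotonin receptor, rose by 2.19 (SE 0.50) and Cysltr2, a leukotriene receptor, by 1.76 (SE 0.36). In the mouse both mark the class of itch neurons that has Nppb and Sst. Npy2r, a neuropeptide Y receptor, showed a log2 fold change of 2.04 (SE 0.58), and F2rl1, which encodes a protease receptor of many epithelia and leukocytes, of -1.90 (SE 0.52); neither passed. The median of the list was 1.2.

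Of 17 tested nociceptor lineage genes, 5 rose and none fell, with a median log2 fold change of 1.23. Isl1, a homeodomain factor of sensory neurons, was at 13.8, 14.1 and 18.1 CPM in MiRNC149, MiRNC640 and MiRNC670, against 3.41, 5.38 and 2.88 CPM in Nf803, Nf809 and Nf827 (log2 fold change 1.97, SE 0.30). Cd55, a complement regulator that nociceptors share with other cells, rose by 1.65 (SE 0.26), the sodium channel subunit gene Scn3b by 1.23 (SE 0.28) and the delta opioid receptor gene Oprd1 by 1.67 (SE 0.38). Of the 17, 14 had positive and 3 negative log2 fold changes.

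**Figure D4:**
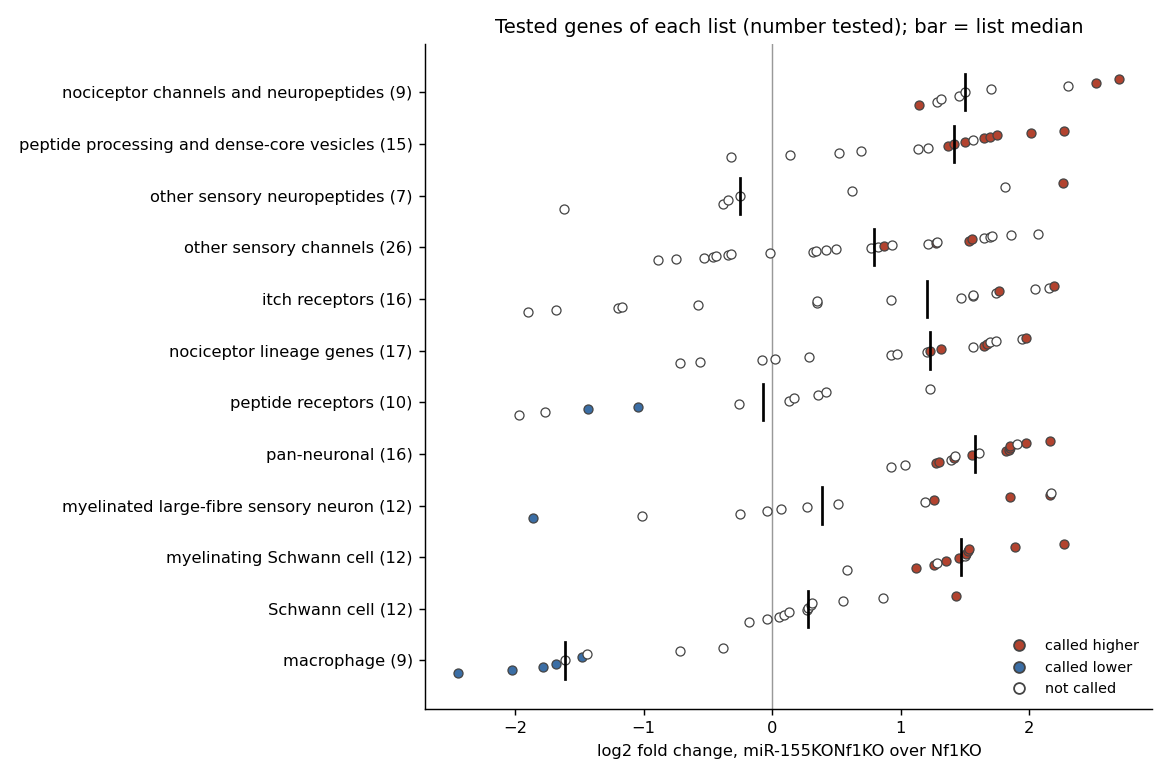
Log2 fold change, miR-155KONf1KO over Nf1KO, of each tested gene in 12 lists, with the number tested in brackets. Points are genes, red where called higher, blue where called lower and white where not called by edgeR, and bars are list medians. The nociceptor set lies wholly above 0, at a median of 1.5 beside 1.58 for pan-neuronal genes, while the peptide receptors centre on -0.07 and macrophage markers on -1.61.

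Markers of other neurons and of glia bear on which tissue the libraries hold. Of 12 markers of large-fibre sensory neurons, 3 rose (Cntnap2, Slc17a7 and Ntrk3) and 1 fell, Runx3, which leukocytes also express, and the median was 0.39. The 10 sympathetic markers summed to 57.9 to 67.1 CPM in miR-155KONf1KO and to 40.5 to 273 CPM in Nf1KO, with 4 tested and none called by edgeR. Motor neuron factors Mnx1 and Lhx3 had no read in any tumour, and the 7 markers of that list summed to 19.2 to 24.2 CPM in miR-155KONf1KO and to 10.3 to 16.3 CPM in Nf1KO. Satellite glia, which wrap sensory cell bodies, had 8 markers at 1491 to 1902 CPM in all in miR-155KONf1KO and 1555 to 1930 CPM in Nf1KO, and Fabp7 alone rose (1.77, SE 0.22). Myelinating Schwann cell markers summed to 10286 to 21588 CPM in miR-155KONf1KO and to 5479 to 6440 CPM in Nf1KO, and 9 of 12 rose. What part more nerve or ganglion in a tumour piece has in the levels of the nociceptor genes was not tested.

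Genes with profiles most like those of the members over the 6 tumours were sought by the root mean square difference of centred log2 CPM. The 13050 candidates left out the members and every gene of the lists, neuronal markers included, so none of these could be found. Predicted genes and genes with a mean log2 CPM under 1 were also left out. Trpv1 was closest to Rtn4rl1, a Nogo receptor homologue of neurons, at 0.03 log2 units, followed by Trim37 and Rufy3 at 0.06. Mrgprd was closest to Cacng2 (0.15), which encodes stargazin, and Trpm8 to Prmt8 (0.17), an arginine methyltransferase of neurons. P2rx3 was closest to Car10 (0.06) and Calca to Cd24a (0.09). Tac1 and Adcyap1 shared their closest gene, Rprm, at 0.12 and 0.15. Trpa1 was closest to Tigd5 (0.16) and Calcb to Ptgdr (0.25). These distances describe 6 libraries, and each closest gene is the best of the 13050 searched, with no test.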

How the data were processed

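RNA was measured in 6 neurofibromas, 3 per group, grouped by their titles. Library preparation used Nextera XT after RNeasy Plus Micro extraction, per the labels' protocols. The authors deposited unscaled whole-number read counts for each gene symbol. The submitters' processing notes name HISAT2 2.0.5, featureCounts 1.5.2 and mm10, while annotation, strand setting and the rule for multiply matching reads are not given in the sources here.

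The groups' counts were tested in edgeR 4.0.16 under R 4.3.3 (quasi-likelihood test, two-sided, filterByExpr with a minimum count of 10 and total of 15, TMM scaling, group as the only term), with Benjamini-Hochberg adjustment over 15604 genes calling genes below 0.05. The F statistic gave the standard errors. CPM use TMM-scaled library sizes, log2 CPM a prior count of 2, and RPKM merged exon lengths from GENCODE M21 (GRCm38, of which mm10 is the UCSC name), which matched 23376 symbols. DESeq2 1.42.0 and limma 3.58.1 were alternatives. The fits were tested on simulated data. Replicate pairs differed by at least 23.2 times the Poisson variance, so none was counted as a repeat. Sex, used in 1 alternative, was read from Xist and Y-linked counts. The named genes are the 10 members, up to 4 genes with the lowest p in each other list, and those nearest to each member. The 3 nearest were sought among genes outside the lists, and the closest are given. Members and lists were chosen with earlier results of these data known.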

Additional observations from a re-analysis of the deposited data

How the results depend on the processing

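Every tested member kept a positive log2 fold change under all 23 alternatives. Of 207 member values, 153 kept their side of the threshold, 14 lost a call, 40 gained one and 0 changed sign. TMM, RLE, upper quartile and total-count scaling and both other filters on low counts gave the same 3 calls. Members called higher were 7 with DESeq2 (8.25% of all genes higher) and 8 with limma voom with quality weights (9.52%). At an adjusted p under 0.1 they were 7 (8.86%). Without tumours MiRNC670 and Nf809 together they were 5 (3.61%). That alternative was chosen after seeing the data, as were the DESeq2 fits that leave out 1 tumour. When 1 tumour was left out, 0 to 8 members were called higher with edgeR (0% to 7.38%) and 3 to 9 with DESeq2 (5.04% to 9.71%). Those called lower were 0 throughout. Over all genes, the numbers higher and lower were 1469 and 1435 with DESeq2, 1485 and 1190 with quality weights, 1383 and 1319 at an adjusted p under 0.1 and 534 and 502 with sex as a term, and, without 1 tumour, 0 to 1183 and 0 to 1059 with edgeR and up to 1721 and 1561 with DESeq2 (1605 and 1526 without MiRNC149). With DESeq2 (8.25% of all genes higher and 8.06% lower), 11 other sensory channels, 10 lineage genes and 5 itch-list genes were higher. In that fit 2 itch-list genes were lower, and 2 other neuropeptides were higher and 2 lower. With sex as a term (3.42% higher and 3.22% lower), 2 other channels, 3 lineage genes, 1 itch-list gene and 0 other neuropeptides were higher. In that fit 1 peptide receptor was lower. Without 1 tumour the numbers higher ran from 0 to 10 for peptide processing, 0 to 9 for other channels, 0 to 9 for lineage genes, 0 to 8 for itch receptors, 0 to 2 for other neuropeptides and 0 for peptide receptors, and those lower from 0 to 1 for peptide receptors and for itch receptors. Against Snap25 and the neurofilament genes alone, the relative difference was lower for every tested member. It was -0.85 for Trpv1, -0.83 for Trpa1, 0.85 for Trpm8, -0.07 for P2rx3 and 0.49 for Mrgprd. For Calca, Calcb, Tac1 and Adcyap1 it was -0.44, 0.73, -0.31 and -0.59. P2rx3 (0.28 with all 16 pan-neuronal genes) and Tac1 (0.04) changed sign. Leaving out 1 tumour gave relative differences of -0.67 to -0.41 for Trpv1, -0.75 to -0.07 for Trpa1, 0.89 to 1.38 for Trpm8, 0.05 to 0.56 for P2rx3, 0.74 to 0.98 for Mrgprd, -0.26 to 0.07 for Calca, 0.26 to 1.59 for Calcb, -0.17 to 0.21 for Tac1 and -0.52 to -0.09 for Adcyap1. The cause of these shifts was not tested. Depth limits Nppb, with at most 15 reads in a tumour, and Calcb in Nf827, with 6. No paired analysis was possible because the tumour numbers differ between the groups.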

Other observations

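Within each library, reads of the members were also set against those of Calca, a scale chosen after the values were seen, so no test is given. Per 1000 Calca reads, Mrgprd had 255, 276 and 269 reads in miR-155KONf1KO (MiRNC149, MiRNC640, MiRNC670), against 133, 101 and 193 in Nf1KO (Nf803, Nf809, Nf827). Trpm8 had 56.8, 117 and 79.8 reads in the tumours without miR-155, against 18.4, 33.9 and 46.4 in Nf1KO. For both genes the groups did not overlap, and Nf827 had the highest value among the Nf1KO tumours. Tac1, another peptidergic gene, had 142, 188 and 110 reads per 1000 of Calca in miR-155KONf1KO, against 129, 136 and 122 in Nf1KO, and the groups overlapped. Adcyap1 had 83.8, 83.2 and 65.1 in miR-155KONf1KO, against 99.5, 82.9 and 70.5 in Nf1KO. Calcb had 81.9, 87.7 and 79.1 in miR-155KONf1KO, against 68.9, 46.2 and 11.1 in Nf1KO. The groups did not overlap for Calcb either, and the low value of Nf827 rests on 6 reads. P2rx3 had 545, 651 and 618 in miR-155KONf1KO, against 418, 557 and 427 in Nf1KO, and the groups overlapped. Trpv1 had 79.96, 125 and 78.03 in miR-155KONf1KO, against 132, 78.5 and 171 in Nf1KO, and Trpa1 had 87.99, 60.4 and 118 in miR-155KONf1KO, against 126, 90.2 and 121 in Nf1KO. Both had the lower median without miR-155, and for both the groups overlapped.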
